A study of Mus musculus with 8 samples.

Results

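The genes described here are those of the chemokines, the interleukins and their receptors in immortalised mouse embryonic fibroblasts (MEFs) treated with retinoic acid (RA). They were chosen by symbol alone, as every gene of the table whose symbol begins with Ccl, Ccr, Cxcl, Cxcr or Il followed by a digit, or with Cx3c, which gave 128 of the 22200 genes. A mean of at least 10 normalised reads over the 8 libraries was required for testing. This left 43 of the 128 genes, and 12673 genes of the table. The other 85 had no value above 17.0 in any library and are given by their range.

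RNA was sequenced from 8 libraries of MEFs of the C57BL/6 background labelled TAF4-/-, of which 3 were untreated and taken at 12 h, 3 were given RA for 12 h and 2 were given RA for 72 h. TAF4 belongs to TFIID, the complex that recognises core promoters, and the cells are a line from which the floxed Taf4 allele had been removed by Cre. All groups share this genotype label, and no library labelled as TAF4-expressing was analysed here. The titles carry the tag cl1, which resembles C1, the name the study gives its TAF4-expressing line, so titles and genotype labels may conflict, and the genotype labels were followed. No untreated library was taken at 72 h, so the effects of RA and of time in culture cannot be told apart in the comparison of 72 h with untreated. Nothing says that the replicates were separate cultures, so the p-values measure the spread between these libraries, which may be technical.

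Chemokines are small secreted proteins that direct the movement of leukocytes through G protein-coupled receptors, and are named CC, CXC or CX3C after the spacing of their first cysteines. Interleukins signal through receptor chains that are often shared within a family, and the IL-1 family also holds a natural antagonist and decoy receptors. Fibroblasts are known as a source of chemokines during inflammation, and RA is a vitamin A derivative that acts through nuclear receptors bound to DNA as dimers.

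The authors had given every library the same distribution of normalised reads, from a floor of 1 to 165593 with a median of 20.75, so the depth of the libraries is unknown. Cyp26b1, an enzyme that degrades RA, lay between 40.4 and 73.0 in the untreated libraries, between 3252 and 4620.1 at 12 h, and at 4476.5 and 6306 at 72 h. Taf4a, the targeted gene, lay between 984 and 1449 over the 8 libraries, and a value for the whole gene does not show whether the deleted part was read, so it does not settle the genotype. Of the fibroblast markers, Vim, Col1a1, Fn1 and Col1a2 were among the abundant genes, whereas Thy1, Lum and Dcn did not exceed 8 in any library. The summed level of the 12 fibroblast markers ranged from 235661 to 256507 in untreated libraries. At 12 h it ranged from 236634 to 247135 and at 72 h from 215415 to 221428. Of the 9 fibroblast markers tested, 1 was called at 12 h, 2 at 72 h and 2 between the 2 times. Over all genes tested 1.42%, 3.67% and 1.5% were called. The 17 leukocyte markers in the table summed to between 98.1 and 143 in every library, with no call in any comparison. The 2 of them that reached the minimum mean were the macrophage marker Emr1, with up to 33 in a library, and Cd14, with up to 27.9, while Cd68 reached 19.9, Csf1r 17.6 and Ptprc, the pan-leukocyte marker, 12.5. Their part in the results was not tested. The 6 endothelial markers summed to between 56.1 and 107 and 5 epithelial markers to between 21.5 and 39.1, again with no call. A lower value can come from fewer cells expressing a gene or from less RNA per cell, which bulk libraries cannot tell apart. Within the groups, the libraries differed along a shared axis, to which 50.1% of their variance inside groups belonged. Side 1 of it held untreated replicates 1 and 2, replicate 3 of RA 12 h and replicate 2 of RA 72 h, and side 2 held the other libraries. The labels give no batch that matches these sides, and changes within each side are given with the results.

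The untreated TAF4-/- MEFs expressed a small number of these genes at high level. Comparison between genes was made per kb of exon, which assumes that reads scale with exon length. On that scale the neutrophil attractant Cxcl5 was highest, with 3869 normalised reads per kb in untreated cells. The monocyte attractants Ccl7 and Ccl2 followed with 2545 and 1683, and Cxcl1, another neutrophil attractant, with 1365. Il1rl1, the receptor of IL-33 also known as ST2, stood at 611 and led the interleukin receptors. Cxcl12, the ligand of Cxcr4 and Cxcr7, stood at 422 per kb. The order rests on the scaling by exon length, which may not hold for the tag libraries that the labels describe. Without it the untreated means were 6403 for Cxcl5, 4213 for Il1rl1 and 3451 for Cxcl12. Those of Ccl7, Ccl2 and Cxcl1 were then lower, at 2038, 1915 and 1301.

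**Figure D1:**
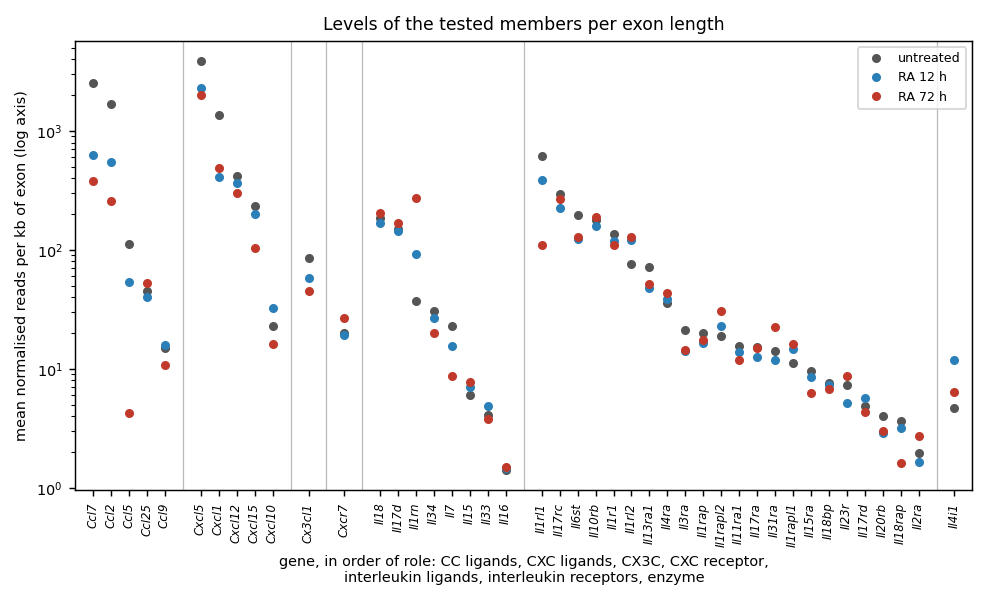
Mean normalised reads per kb of exon (log axis) of the 43 tested genes in untreated (grey), RA 12 h (blue) and RA 72 h (red) cells, grouped by role. The CC ligands Ccl7, Ccl2 and Ccl5 and the receptor Il1rl1 fall with treatment, while the antagonist Il1rn rises from 37.5 to 274 per kb.

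The ligands and the receptors were read unevenly. Testing was possible for 5 of 16 CC ligands and 5 of 13 CXC ligands, whereas none of the 10 CC receptors and 1 of the 7 CXC receptors, Cxcr7, reached the minimum mean. The highest value of any CC receptor in any library was 11.9. Cx3cl1, the CX3C ligand, was tested, and its receptor Cx3cr1 did not exceed 6.75. Of the 38 interleukin ligands and antagonists 8 were tested, and of the 41 interleukin receptors and binding proteins 22. At least 1 library stood at the floor of the table for 63 of the 128 genes, none of them among the genes tested.

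To ask how these genes responded to RA, each treated group was compared with the untreated libraries using limma on log2(value + 1), and the word called is used for a change of at least 2-fold with an adjusted p below 0.05. At 12 h, 5 of the 43 genes were called (11.6%), against 1.42% of all genes tested. The chemokine ligands Ccl7, Ccl2 and Cxcl1 were lower and the antagonist Il1rn and the enzyme gene Il4i1 were higher. Over all genes 0.308% were called lower and 1.11% higher. At 72 h, 8 of the 43 were called (18.6%), against 3.67% of all genes. The 7 genes that fell were Ccl5, Ccl7, Ccl2, Il1rl1, Cxcl1, Il7 and Cxcl15, and Il1rn rose. Over all genes 1.52% of all genes were called lower and 2.15% higher. Between 12 h and 72 h, 4 of the 43 changed (9.30%), with Il1rn higher and Ccl5, Il1rl1 and Ccl2 lower at 72 h, against 1.5% of all genes, of which 0.734% were lower and 0.765% higher. These comparisons share libraries, so they are not independent of each other.

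Without the 2-fold minimum, 10 of the 43 genes passed the adjusted p at 12 h, where 4.37% of all genes did, 12 at 72 h, where 11.5% did, and 7 between the 2 times, where 5.84% did. The median log2 change of the 43 genes was -0.18 at 12 h and -0.19 at 72 h, beside -0.02 and -0.02 over all genes tested. At 12 h 31 of the 43 had a negative change and at 72 h 27. Of the 19 tested ligands, the antagonist included, 4 were called at 12 h and 7 at 72 h. Of the 23 tested receptors and binding proteins, none was called at 12 h and 1, Il1rl1, at 72 h. Over all genes tested 1.42% and 3.67% were called. In a set of 23 the receptor counts lie near these shares and say nothing particular about receptors.

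**Figure D2:**
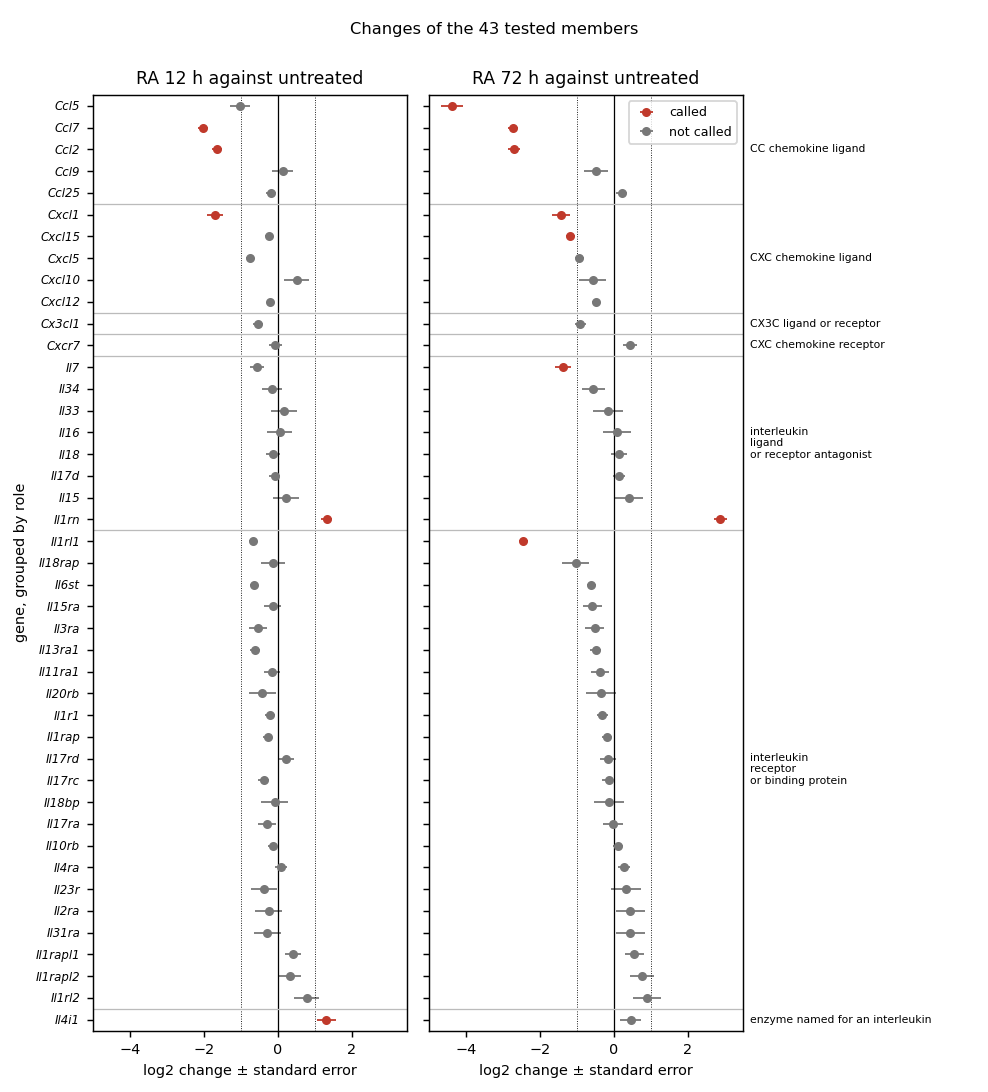
Log2 change with its standard error of the 43 tested genes at RA 12 h (left) and RA 72 h (right) against untreated, grouped by role, with called genes in red and dotted lines at a 2-fold change. At 72 h Ccl5, Ccl7, Ccl2 and Il1rl1 lie beyond -2 and Il1rn beyond 2, and most other interleukin receptors lie between the dotted lines.

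Ccl2 and Ccl7, which attract monocytes, fell at 12 h and were lower again at 72 h. The untreated libraries gave 1986, 1696 and 2063 normalised reads of Ccl2, the RA 12 h libraries 511, 777 and 573, and the RA 72 h libraries 305 and 285. The 3 groups did not overlap. The log2 change was -1.64 ± 0.14 (SE) at 12 h, with an adjusted p of 9.16e-06, and -2.69 ± 0.16 at 72 h, with an adjusted p of 2.44e-07. From 12 h to 72 h it fell by 1.05 ± 0.16 on the log2 scale (adjusted p = 0.00166), which dropped below 2-fold without RA 12 h replicate 2 (-0.87) or without RA 72 h replicate 2 (-0.997). Within side 1 the change at 72 h was -2.69 and within side 2 it was -2.75.

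For Ccl7 the untreated values were 2187, 2243 and 1686, those at 12 h were 451, 567 and 484, and those at 72 h were 285 and 326. Again the groups did not overlap, and the largest step was between untreated and 12 h. The log2 change was -2.02 ± 0.13 at 12 h (adjusted p = 8.91e-07) and -2.73 ± 0.15 at 72 h (adjusted p = 9.06e-08). The further change of -0.71 ± 0.15 between the 2 times had an adjusted p of 0.0116 and was short of 2-fold. At 12 h the change was -2.19 within side 1 and -1.74 within side 2.

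Ccl5, or RANTES, which attracts T cells and monocytes, had the largest change of the tested genes described here. Its values were 88.5, 151 and 82.4 in untreated cells, 43, 45 and 65.6 at 12 h, and 4.75 and 3.38 at 72 h. The 72 h libraries thus stood close to the floor of 1. The change of -4.38 ± 0.30 at 72 h (adjusted p = 1.00e-06) depends on the pseudocount at such low values, and was -3.01 on log2(value + 10). An estimate of the reads that gene length alone would give came to 16.6% of the Ccl5 value at 72 h and to 0.514% in untreated cells. At 12 h the groups did not overlap and the log2 change was -1.02 ± 0.27, with an adjusted p of 0.0524 that missed the threshold. It passed the threshold when untreated replicate 3, RA 12 h replicate 3 or either RA 72 h library was left out. Over all settings tried, the change of Ccl5 at 12 h ran from -1.21 to -0.75. It was -0.81 within side 1 and -0.89 within side 2, both short of 2-fold. Between the 2 times Ccl5 fell by 3.35 ± 0.30 on the log2 scale (adjusted p = 4.09e-05).

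The other tested CC ligands were not called. Ccl25, a thymus-expressed chemokine, had group means of 121, 106 and 139.6 in untreated, RA 12 h and RA 72 h cells, with log2 changes of -0.18 and 0.21 against untreated, and it shares 41.6% of its exon bases with a second gene model of the same name. Ccl9, a ligand of Ccr1, had changes of 0.14 and -0.47. Receptors of the called CC ligands were below the minimum mean. Ccr2, the receptor of Ccl2 and Ccl7, ranged from 2.5 to 11.9 over the 8 libraries, Ccr1 from 1 to 3.5 and Ccr3 from 1 to 1.5.

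The CXC ligands Cxcl1, Cxcl5 and Cxcl15 lie in the same cluster of chromosome 5. Cxcl1 values were 1138, 1838 and 926 in untreated cells, 352, 334 and 488 at 12 h, and 398 and 536 at 72 h. The treated groups overlapped with each other, and neither overlapped with the untreated group, in which replicate 2 was high. The log2 change was -1.69 ± 0.22 at 12 h (adjusted p = 0.000345) and -1.43 ± 0.25 at 72 h (adjusted p = 0.0018). Between 12 h and 72 h the difference of Cxcl1 was 0.26 ± 0.25 and was not called.

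Cxcl15, also known as lungkine, was 464, 539.8 and 500.1 in untreated cells, 447, 416 and 415 at 12 h, and 214 and 228 at 72 h. The values at 12 h lay just under those of untreated cells, and those at 72 h were lower than all others. The change at 12 h was -0.23 ± 0.11 and was not called, and at 72 h it was -1.18 ± 0.12 (adjusted p = 2.55e-05). Between the 2 times Cxcl15 changed by -0.94 ± 0.12, with an adjusted p of 0.000395, and did not reach 2-fold.

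Cxcl5 passed the adjusted p in both comparisons with untreated without reaching 2-fold, with means of 6403 ± 301 (SD, n = 3), 3843 ± 519 (n = 3) and 3353 ± 314 (n = 2). Its log2 changes were -0.74 ± 0.11 and -0.94 ± 0.13. The second was called without RA 72 h replicate 1 (-1.03). Cxcl12 fell by 0.50 ± 0.10 at 72 h (adjusted p = 0.00509), from a mean of 3451 to 2447, and Cx3cl1 by 0.54 ± 0.13 at 12 h and 0.91 ± 0.15 at 72 h, from a mean of 317 to 216 and 167. The change of Cx3cl1 at 72 h was called without untreated replicate 3 (-1.04). Cxcl10, an interferon-induced ligand of Cxcr3 named here after its values were seen, ranged from 14.1 to 62.6 and was not called in any comparison, though without RA 72 h replicate 2 it was called lower at 72 h than at 12 h (-1.72). Cxcr7, which binds Cxcl12 and was the only chemokine receptor tested, had means of 67.1, 64.0 and 90.4 and was not called. Il8rb, the receptor of Cxcl1 and Cxcl5 now named Cxcr2, ranged from 1 to 7.25.

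The 5′ flanks of Cxcl1 and Cxcl15 are shown because these neighbours on chromosome 5 were both lower at 72 h, and only Cxcl1 was called at 12 h. Windows of 300 bases around annotated starts were taken from RefSeq on GRCm38.p6, forward strand, and searched on both strands for the NF-kB motif GGGANTTTC, the interferon element GAAANNGAA and AGGTCA direct repeats spaced by 1, 2 or 5 bases, which nuclear receptors including those of RA can bind. Of the 9 called genes, Cxcl1, Cxcl15, Il1rl1, Il1rn and Il4i1 were matched to 8 windows, and Ccl2, Ccl5, Ccl7 and Il7 were not. Capitals mark the single match, an NF-kB motif in Cxcl1 at bases 180 to 188 of the window.
Cxcl1 (chr5:90890995-90891294): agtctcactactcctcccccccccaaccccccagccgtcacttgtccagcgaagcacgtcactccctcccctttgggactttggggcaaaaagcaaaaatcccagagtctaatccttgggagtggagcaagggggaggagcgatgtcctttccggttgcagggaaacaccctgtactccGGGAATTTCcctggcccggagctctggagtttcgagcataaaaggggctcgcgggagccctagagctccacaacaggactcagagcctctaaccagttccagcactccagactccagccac
Cxcl15 (chr5:90794284-90794583): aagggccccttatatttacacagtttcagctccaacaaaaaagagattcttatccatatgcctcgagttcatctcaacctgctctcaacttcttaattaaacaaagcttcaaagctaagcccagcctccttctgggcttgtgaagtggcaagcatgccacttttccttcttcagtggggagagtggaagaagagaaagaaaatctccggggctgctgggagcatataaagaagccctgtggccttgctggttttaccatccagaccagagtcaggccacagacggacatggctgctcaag
Of all 32851 windows, 1.11% held the NF-kB motif, as did 7 of the 109 windows of the genes described here. The interferon element was in 8.56% of all windows and in 12 of the 109, with none in the windows of called genes. The 3 AGGTCA repeats were in at most 0.0396% of all windows and in none of the 109. A match is a run of letters and not a bound site, and the absence of a match covers these letters in these windows only.

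In the IL-1 family, which held 19 of the 128 genes and 11 of those tested, the antagonist Il1rn rose and the receptor Il1rl1 fell. Il1rn encodes the IL-1 receptor antagonist, which occupies the receptor Il1r1 without signalling. It was read at 96.9, 112 and 152 in untreated cells, at 314, 291 and 292 at 12 h, and at 903 and 855 at 72 h. Every library of a later group lay above every library of an earlier one. The log2 change was 1.33 ± 0.15 at 12 h (adjusted p = 9.61e-05) and 2.88 ± 0.17 at 72 h (adjusted p = 1.86e-07). The rise from 12 h to 72 h was 1.55 ± 0.17 (adjusted p = 0.000151). At 72 h the libraries of side 1 alone gave a change of 3.02 and those of side 2 gave 2.57.

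The other IL-1 ligands were low, and Il1a and Il1b are named here after their values were seen. Il1b, an agonist of the same receptor, ranged from 1 to 1.75 over the 8 libraries and Il1a from 1 to 4.63. Il1r1, the signalling receptor that Il1rn blocks, had means of 692 ± 108, 596 ± 56.7 and 554.5 ± 56.4 and was not called, with changes of -0.21 and -0.31. Il18, another ligand of the family, had means of 129, 118 and 143.5 and was not called.

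Il1rl1 encodes ST2, which gives a receptor for IL-33 and a soluble decoy from the same gene, and a gene-level value does not separate them. Untreated libraries gave 4599.8, 4409.8 and 3628, RA 12 h libraries 2678, 2514 and 2772, and RA 72 h libraries 813 and 716. The 3 groups did not overlap, and the greater part of the fall lay between 12 h and 72 h. At 12 h the log2 change of -0.66 ± 0.11 passed the adjusted p (0.00258) without reaching 2-fold. At 72 h it was -2.46 ± 0.12 (adjusted p = 4.96e-08), and between the 2 times -1.80 ± 0.12 (adjusted p = 5.51e-06). The ligand Il33 stood just above the minimum mean, at 7.63 to 19.3 over the 8 libraries, and was not called.

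The windows of Il1rn and Il1rl1 are shown because these were the called IL-1 family genes, and none of the motifs searched was found in them. For Il1rn the first of its 3 starts in the table is printed and for Il1rl1 both starts, which lie on the forward strand. The reads per gene do not show which start was used.
Il1rn (chr2:24336610-24336909): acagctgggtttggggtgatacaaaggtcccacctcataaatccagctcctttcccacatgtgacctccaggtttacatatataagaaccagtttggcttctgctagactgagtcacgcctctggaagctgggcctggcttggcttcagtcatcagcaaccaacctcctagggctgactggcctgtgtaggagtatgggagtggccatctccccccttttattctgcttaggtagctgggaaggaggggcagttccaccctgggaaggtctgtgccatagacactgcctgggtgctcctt
Il1rl1, first start (chr1:40429320-40429619): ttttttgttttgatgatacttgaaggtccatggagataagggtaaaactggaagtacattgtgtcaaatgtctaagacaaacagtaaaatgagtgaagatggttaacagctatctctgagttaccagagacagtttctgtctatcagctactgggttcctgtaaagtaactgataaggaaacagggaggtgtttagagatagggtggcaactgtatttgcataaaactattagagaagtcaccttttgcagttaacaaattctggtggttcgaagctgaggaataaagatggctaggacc
Il1rl1, second start (chr1:40439379-40439678): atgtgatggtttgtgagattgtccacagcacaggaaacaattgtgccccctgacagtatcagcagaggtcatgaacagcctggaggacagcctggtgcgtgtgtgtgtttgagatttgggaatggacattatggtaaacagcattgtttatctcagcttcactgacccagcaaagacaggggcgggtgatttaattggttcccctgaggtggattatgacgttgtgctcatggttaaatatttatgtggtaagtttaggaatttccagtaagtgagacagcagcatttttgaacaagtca

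Il7, a growth factor of lymphocyte precursors, was the other interleukin called. It was 66.8, 77.4 and 93.8 in untreated cells, 48.9, 54.8 and 56.1 at 12 h, and 25.9 and 34.0 at 72 h. The groups were in that order without overlap. The change was -0.55 ± 0.19 at 12 h, not called, and -1.37 ± 0.22 at 72 h (adjusted p = 0.000979). At 72 h the libraries of side 1 alone gave -1.06 and those of side 2 gave -1.82. Between the 2 times Il7 changed by -0.82 ± 0.22 (adjusted p = 0.0435), short of 2-fold. An estimate of the reads that gene length alone would give came to 6.12% of its value in untreated cells and to 19.8% at 72 h. Its receptor chains Il7r and Il2rg ranged from 1 to 4.75 and from 1 to 5.63.

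Il4i1 encodes a secreted amino acid oxidase induced by IL-4 and is named for an interleukin without being one. It was 14.8, 24.1 and 18.4 in untreated cells, 56.3, 39.3 and 50 at 12 h, and 22.8 and 30.0 at 72 h. The values at 12 h lay above all others, while the untreated and 72 h groups overlapped. The change at 12 h was 1.31 ± 0.25 (adjusted p = 0.00759). It was no longer called without RA 12 h replicate 1 (adjusted p = 0.0648) or after subtraction of the length-related background (adjusted p = 0.0524). At 72 h the change against untreated was 0.46 and was not called, and from 12 h to 72 h it was -0.85. Its exons share 114 bases with Nup62 on the same strand and 82 with Atf5 on the other, so reads there could belong to either gene.

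**Figure D3:**
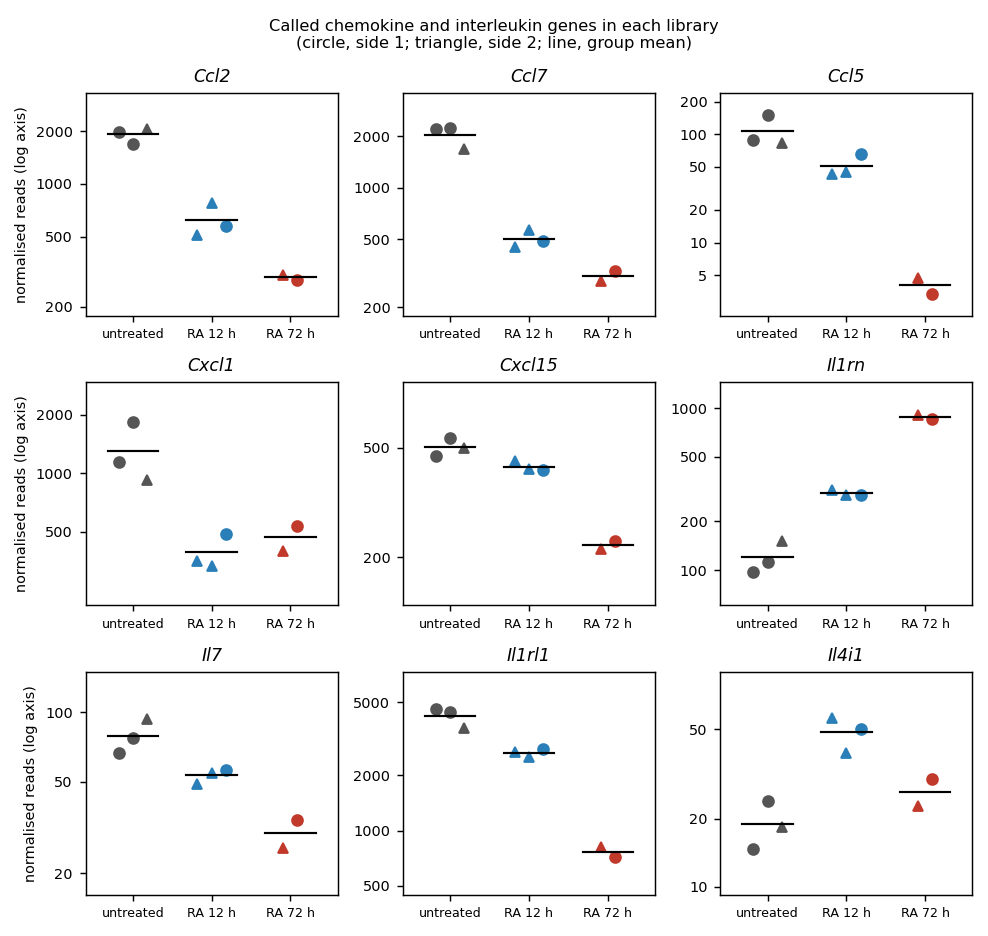
Normalised reads (log axes) of the 9 called genes in each library, with circles for side 1, triangles for side 2 and a line at the group mean. Il1rn rises in steps to 903 and 855 at 72 h, Ccl2, Ccl7, Ccl5, Il7 and Il1rl1 fall in steps, Cxcl1 is low in both treated groups and Il4i1 is high at 12 h.

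Most interleukin receptors were not called, which was also so for most genes tested. Il6st, the gp130 chain shared by the receptors of IL-6 and its relatives, fell by 0.65 ± 0.11 at 12 h (adjusted p = 0.00376) and 0.61 ± 0.13 at 72 h (adjusted p = 0.0059), from a mean of 1017 to 649 and 665. Il13ra1, a chain of the receptor of IL-4 and IL-13, fell by 0.61 ± 0.14 at 12 h (adjusted p = 0.023), with means of 269 and 177. At 72 h its mean was 192, and the change of -0.49 ± 0.15 missed the threshold (adjusted p = 0.0584). Il17rc, a receptor of IL-17, stood at means of 791, 600.4 and 712 and was not called. Il17d, a ligand of that family, was not called either, with means of 186, 176 and 208. Over the 22 tested receptors and binding proteins, changes at 72 h ran from -2.46 in Il1rl1 to 0.89 in Il1rl2.

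Il1rl2, Il1rapl2, Il18rap and Il31ra are named because calls on them turned on 1 library, after their values were seen. Without untreated replicate 3, Il1rl2, the receptor of the IL-36 ligands, was called higher at 12 h (1.24) and at 72 h (1.35), and Il1rapl2 at 72 h (1.14). Il18rap, a chain of the IL-18 receptor, was then called lower at 72 h (-1.34). In the Il1rapl1 and Il1rapl2 genes, which span 1375 and 1276 kb, the reads that gene length alone would give came to 152% and 167% of the value in untreated cells. Without RA 72 h replicate 1, Il31ra was called higher at 72 h, both against untreated (1.29) and against 12 h (1.56). Its values at 72 h were 39.1 and 126.8, and that fit leaves 1 library at 72 h.

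Several of these genes lie in clusters, in which levels and calls differed between neighbours. In mm9 coordinates, chromosome 11 holds Ccl2 (81849073 to 81850955), Ccl7 (81859214 to 81861027), Ccl11, Ccl12, Ccl8 and Ccl1 in that order, of which Ccl2 and Ccl7, 8.26 kb apart, were tested and called, and the other 4 had means of at most 1.27. Elsewhere on chromosome 11, Ccl5 (83339280 to 83344020) was called and its neighbour Ccl9, 42.4 kb away, was not. On chromosome 5, Cxcl5 (91188325 to 91190651), Cxcl15 (91223560 to 91232093) and Cxcl1 (91320267 to 91322141) were tested, and Cxcl3 and Cxcl2 between and beside them were not. Only genes chosen by symbol were placed in clusters. Ppbp, a chemokine gene outside that choice which was higher at 12 h (1.49), was therefore not placed. Cxcl3 was 9.13, 13.9 and 5.25 in untreated cells and between 1 and 3.13 in treated ones, and was called lower in both comparisons when no minimum mean was set (-1.84 and -2.25). On chromosome 1, Il1rl1 (40486415 to 40522260) lies between Il1rl2 and Il18r1, the latter 0.137 kb away with a mean of 3.77, and on chromosome 2 Il1rn (24192373 to 24207014) follows 4 IL-1 family genes with means of at most 2.81. Il7 lies on chromosome 3 (7572036 to 7613722) and Il4i1 on chromosome 7 (52071740 to 52096179).

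**Figure D4:**
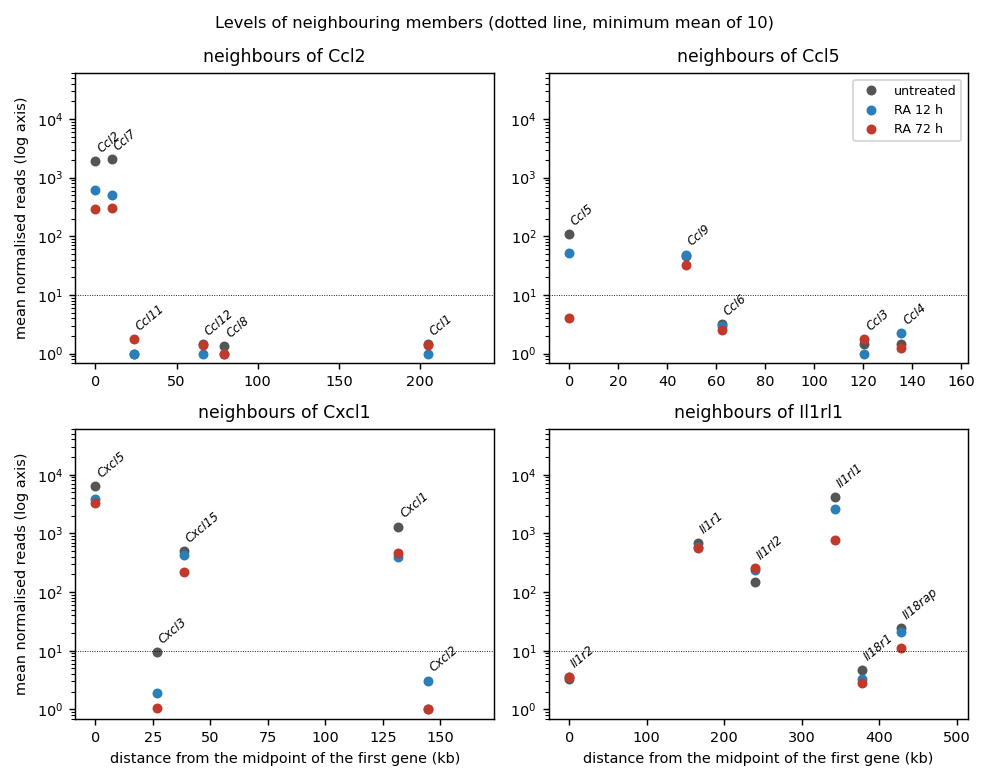
Mean normalised reads (log axes) of neighbouring members in untreated (grey), RA 12 h (blue) and RA 72 h (red) cells against distance in kb from the midpoint of the first gene of each cluster, with a dotted line at the minimum mean of 10. Ccl2 and Ccl7 stand far above Ccl11, Ccl12, Ccl8 and Ccl1, and Il1rl1 falls from a mean of 4213 to 764 while Il1rl2, the gene before it, goes from 149.7 to 252 without a call.

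Genes of the pathways downstream of these receptors were read from lists of related genes. None of the 24 tested genes for JAK, STAT and SOCS proteins and none of the 16 for IL-1 and Toll receptor signalling was called in any comparison, with 1 of the first list passing the adjusted p at 12 h and 2 at 72 h, and 0 and 1 of the second. In lists of this size the shares of all genes called, 1.42% and 3.67%, amount to less than 1 gene, so these counts say nothing particular about the lists. Of 23 tested NF-kB subunits, inhibitors and kinases, Tnfaip3, a negative regulator of NF-kB, was higher by 1.90 ± 0.12 at 12 h and 1.91 ± 0.14 at 72 h, and Nfkbie, an inhibitor subunit, was lower at 72 h (-1.13). Of 18 tested TNF ligands and receptors, the decoy receptor Tnfrsf11b was lower (-1.92 at 12 h and -1.61 at 72 h), the TNF receptor Tnfrsf1b was higher (1.25 and 1.23), and Tnfrsf25 was lower at 72 h (-1.60). Of 13 tested relatives with symbols outside the rule, the platelet chemokine gene Ppbp was higher at 12 h (1.49 ± 0.22, adjusted p = 0.00118) and was not called at 72 h (0.62). Median changes of the 5 lists ran from -0.23 to -0.01 at 12 h and from -0.01 to 0.06 at 72 h. The lowest at 12 h was that of the 13 relatives outside the rule, beside -0.18 for the 43 genes.

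The called changes were also computed within each side of the shared axis. Between 12 h and 72 h, Il1rn changed by 1.55 within side 1 and 1.58 within side 2, Il1rl1 by -1.95 and -1.67, Ccl2 by -1.01 and -1.04, and Ccl5 by -3.93 and -2.97. Since the groups of called genes did not overlap, the direction within a side was fixed and only the sizes are informative. When the side was added to the model, 5, 9 and 5 genes were called at 12 h, at 72 h and between the 2 times. Over all 12673 genes tested the calls were then 197, 512 and 230. Cxcl10 was added between the 2 times (-1.22) and Il18rap at 72 h (-1.02). The sides were taken from the spread of these same libraries, so the added term lowers that spread by construction. Each side holds 1 library of RA 72 h, and the values within a side have no test.

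**Figure D5:**
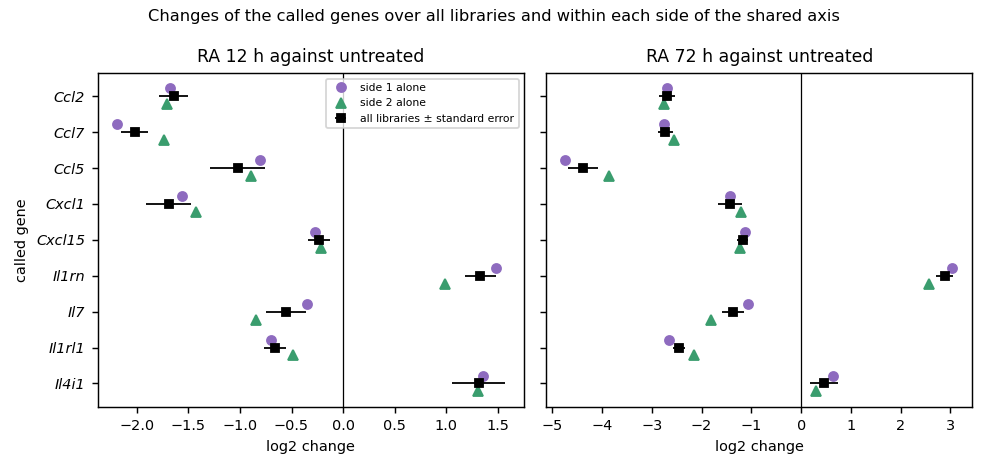
Log2 change of the 9 called genes at RA 12 h (left) and RA 72 h (right) against untreated, over all libraries with the standard error (black) and within side 1 (circles) or side 2 (triangles) alone. The sides differ little for Ccl2 at 72 h (-2.69 and -2.75) and more for Il7 (-1.06 and -1.82).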

How the data were processed

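The authors deposited 1 table of normalised reads per Ensembl gene, whose unit is treated as a score because the deposited values are not counts. Reads were aligned to mm9 per the labels. All 8 deposited columns hold the same sorted values, as quantile normalisation gives, and the depth is lost. The study's methods name the normalisation of the DESeq package instead, a difference that was not resolved. The labels describe tag libraries and the study's methods fragmented mRNA, a difference that was not resolved and that bears on levels per kb. The table holds 22200 genes, besides 1 line with no gene, which was dropped. The deposited averages and log2 ratios of the groups were not used. Treatment times follow the labels, as do the study's results, while its methods name another second time. The series text counts 1 library fewer than the table holds.

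Genes were kept at a mean of 10 or more, log2(value + 1) was taken, and 1 linear model with 3 groups and a variance trend was fitted with limma 3.58.1 (R 4.3.3). Tests are two-sided, with Benjamini-Hochberg adjustment over all 12673 genes. The code was tested on simulated data. Standard errors are from limma, and fold changes of low genes are understated by the pseudocount. Background related to gene length was estimated in each library as the 25th percentile of reads per Mb of gene span over genes of at least 100 kb. Gene positions are from the mm9 annotation, and promoter windows, on GRCm38.p6, are from RefSeq. Named genes are the called ones with every library, those passing the adjusted p alone, partners of called genes, and the 3 highest tested genes of each role. The genes, lists and tests were chosen with earlier results of these data known. Alternatives covered the pseudocount, the filter, the call rule, the variance model, a replicate block, the side of the shared axis, the length-related background and each library left out.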

Additional observations from a re-analysis of the deposited data

Results flagged for a closer look

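For 4 genes the effect of RA against the same untreated libraries differed between 12 h and 72 h by a test of the difference itself, with limma and an adjusted p over all genes. Il1rn was higher at 72 h than at 12 h by 1.55 on the log2 scale (adjusted p = 0.000151). Il1rl1 differed by -1.80 (adjusted p = 5.51e-06), Ccl2 by -1.05 (adjusted p = 0.00166) and Ccl5 by -3.35 (adjusted p = 4.09e-05). In each of the 4 both values at 72 h lay beyond all 3 at 12 h. The genes were picked by this same difference, so that separation adds no support. Time in culture differs between these groups together with the length of treatment.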

How the results depend on the processing

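The pseudocount, the filter, the variance trend, the side term, the length-related background, an unadjusted p with at least 2-fold, and leaving out each library kept the counts of called genes within 1.5 times of 5, 8 and 4 at 12 h, at 72 h and between the 2 times. Dropping the 2-fold minimum gave 10 at 12 h and 7 between the 2 times, and 12 at 72 h. Leaving out 1 library at a time gave 4 to 7, 8 to 12 and 3 to 5, the 7 and the 12 without untreated replicate 3. Without untreated replicate 3 the calls over all 12673 genes rose too, from 180 to 322 at 12 h and from 465 to 641 at 72 h. With a mean of at least 50, Il4i1 was not tested and 4 genes were called at 12 h. Of 939 values of named genes over these settings, 0 reversed a called direction, 4 called values lost their call and 6 gained one, as given with the genes. A further 17 changed sign without being called in either fit. Passing the adjusted p short of 2-fold is not counted among these calls. It did not hold in every setting for Il13ra1 and Cx3cl1 at 12 h, or for Il6st and Cxcl12 at 72 h. The same was true of Ccl7 and Il7 between the 2 times. Correlations of the deviations from group means ran from -0.47 to 0.42 between same-numbered libraries. They cannot decide whether replicate numbers pair the libraries, because the 2 RA 72 h libraries deviate by equal and opposite amounts. With a replicate block 5, 8 and 4 genes were called, beside 174, 430 and 172 of all 12673, and no call on a gene described here changed. The depth of the libraries and the absence of an untreated group at 72 h limit what the table can show.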
